A study of Mus musculus with 2 samples.

Results

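The insulin-like growth factor (IGF) axis was examined through 10 genes, the ligands *Igf1* and *Igf2*, the receptors *Igf1r* and *Igf2r*, and the binding protein genes *Igfbp2* to *Igfbp7*. They were picked by name, with earlier results of these data known. Every probe set annotated to 1 of them alone was used. This gave 28 of the 34945 probe sets named for a single gene and 10 of 18193 named genes. SFZ cells came from the superficial zone of articular cartilage of femur and tibia. Costal chondrocytes (CC) came from collagenase-digested ribs. Both were from untreated ICR mice at postnatal day 4, with no stated genetic modification and no stated number or sex of animals, and were kept in DMEM with 10% FBS. The RNA of each cell type was measured on 1 Affymetrix mouse genome array, so no difference between them has a replicate check and no p-value is given. The samples differ in body position, rib against limb joint, as well as in cartilage zone, and these cannot be told apart here.

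IGF-I and IGF-II are small secreted growth factors related to insulin. Both signal through the type 1 IGF receptor, a tyrosine kinase that acts on the PI3K and AKT pathway, while the IGF-II receptor, also the mannose 6-phosphate receptor, carries IGF-II to lysosomes. Binding proteins hold the ligands in serum and matrix until proteases release them. In cartilage the axis is known for driving growth plate chondrocyte growth and proteoglycan synthesis.

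The ligand and binding protein genes split into groups, and the receptors were close to equal. *Igf1*, *Igfbp2*, *Igfbp3* and *Igfbp6* were higher in CC, *Igfbp4* tended the same way on each of its 6 probe sets, and *Igf2*, *Igf1r*, *Igf2r*, *Igfbp5* and *Igfbp7* did not differ by a ratio of 2 on any probe set with a signal over 100. The values were MAS5 signals, linear intensities in arbitrary units for each probe set, a group of short oligonucleotides against 1 transcript or more. With thresholds adapted from the study and applied in both directions, a probe set counted as higher in a cell type where its signal there was over 100 and exceeded that of the other cell type by a ratio over 2. Each gene was represented by its probe set of highest mean log2 signal. By these thresholds 4 of the 10 genes were higher in CC and none reached them in SFZ cells. Over all named genes 5.41% were higher in CC and 1.18% in SFZ cells. Only 12477 of the 18193 named genes were above the background level given below, as all 10 members were. The shares over all named genes and over all probe sets are therefore low baselines. After scaling to equal medians these shares were 4.14% and 1.83%, after quantile normalization they were 3.77% and 2.07%, and the same 4 IGF axis genes were higher in CC under both. Of the 28 probe sets, 13 were higher in CC and 0 in SFZ cells, against 3.58% and 0.779% of all probe sets. With equal medians, quantile normalization and equal trimmed means the count was 9 each time, against 2.7%, 2.43% and 2.64% of all probe sets, and the 4 lost were all of *Igfbp4*. Because 11 of the 13 belonged to *Igf1*, *Igfbp3* and *Igfbp4*, they are not 13 separate genes.

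**Figure D1:**
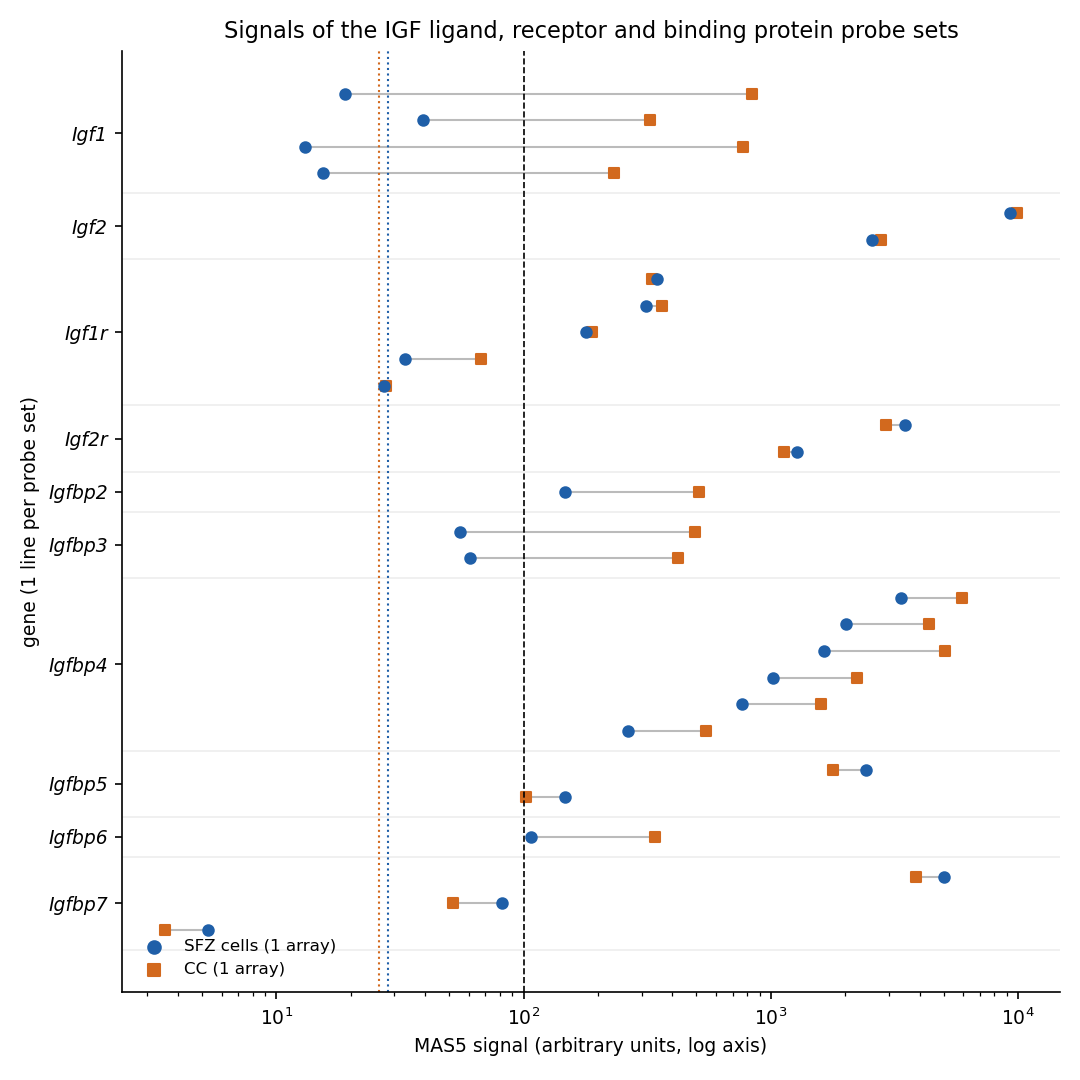
MAS5 signals of the 28 probe sets on a log axis, with 1 line per probe set, circles for the SFZ array and squares for the CC array. Dotted lines mark the background levels of 28.2 (SFZ) and 26.0 (CC), and the dashed line marks the minimum of 100. The 3 widest lines belong to *Igf1*, and on both probe sets of *Igf2* the arrays nearly coincide.

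The arrays were close in overall level, with median signals of 28.1 (SFZ) and 32.0 (CC). A background level was taken as the 95th percentile of 86 probe sets of chemosensory receptor genes which gave 28.2 for SFZ cells and 26.0 for CC. Of the 28 probe sets 27 were above background on at least 1 array and 23 on both, and each of the 10 genes had a probe set above background on both. SFZ cells stood at a median log2 ratio of -0.21 to CC over the 12477 named genes above background on an array, and equal medians and quantile normalization raised it by 0.19 and 0.23. All 15 chondrocyte markers were above background on an array, with the collagen gene *Col2a1* at 8251 in SFZ cells and 9074 in CC. The 6 superficial zone markers did not run 1 way. *Prg4*, which encodes lubricin, was higher in SFZ cells, at 323 against 73.6. *Vcam1*, a cell adhesion gene, was higher in CC, at 35.7 against 354, as was the matrix gene *Thbs4*, at 108 against 388. *Gdf5*, a joint growth factor, was at 93.1 and 74.2, *Erg*, a transcription factor gene, at 113 and 65.2 and *Clu*, encoding clusterin, at 408 and 749 with 2 of its 4 probe sets higher in CC. Their summed signal was lower in SFZ cells, 1081 against 1704 in CC. *Actb*, encoding actin, was at 7578 and 9338. The control probe sets at opposite ends of the *Actb* transcript, which reflect RNA quality, gave ratios of 1.35 (SFZ) and 1.24 (CC).

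*Igf1*, which encodes IGF-I, was measured by 4 probe sets. The one with the highest mean signal read 18.9 in SFZ cells, under the background level, and 840 in CC. The bound from that probe set alone was at least 29.8-fold toward CC. Another probe set read 13.0 and 773, with a bound of at least 27.4-fold. The next read 15.4 and 232, with a bound of at least 8.25-fold. On the only *Igf1* probe set above background on both arrays, the SFZ signal was 39.0 and the CC signal 324, which is a ratio of 8.31. All 4 were thus higher in CC, and 3 of them were under background in SFZ cells. The ratio of the brightest was lower than those of 99.6% of the 500 probe sets nearest to it in mean signal, a place that is not exact because the SFZ signal was under background. The SFZ signal near or under background makes the size of the *Igf1* ratio depend on processing, and it was 10.9 with 64 added to both signals.

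*Igf2*, the growth factor gene expressed mainly from the paternal chromosome and most strongly before birth, was bright on both arrays. Its brighter probe set read 9270 in SFZ cells and 9914 in CC, and the other read 2564 and 2792. The ratios of CC over SFZ cells were 1.07 and 1.09, which turned slightly toward SFZ cells, to ratios of 1.07 and 1.08 on the brighter probe set, with equal medians and with equal trimmed means. The highest signals on the arrays were 13754 and 13608, so the brighter *Igf2* probe set lay near the top of the measured range, where differences may be compressed, while the dimmer one lay well below it. The ligands therefore stood apart. *Igf1* was near or under background in SFZ cells and between 232 and 840 in CC, whereas *Igf2* was close to equal on both of its own.

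The type 1 receptor gene *Igf1r* was covered by 5 probe sets. The brightest read 346 in SFZ cells and 331 in CC. The next ones read 314 against 362 and 179 against 189. These 3 probe sets had ratios of SFZ cells over CC of 1.04, 0.867 and 0.944, so they lay on both sides of equality, and the median over all probe sets was 0.944. A dimmer probe set read 33.0 and 67.1, a ratio of 2.03 toward CC with a CC signal under the minimum of 100. The fifth read 27.2 and 27.8, around the background level.

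*Igf2r*, encoding the scavenging receptor for IGF-II, was at 3472 (SFZ) and 2920 (CC) on its brighter probe set. Its second probe set read 1274 and 1126. The ratios of SFZ cells over CC were 1.19 and 1.13, both slightly toward SFZ cells. The ratio lay between 1.16 and 1.37 under the 8 alternatives of scaling, added constant, background and probe set choice. That range describes its size and is not a check of its direction. Neither receptor gene passed the thresholds in either direction on any probe set. *Insr*, encoding the insulin receptor, which can pair with the type 1 IGF receptor, was likewise at 370 (SFZ) and 335 (CC). *Insrr*, the insulin receptor-related gene, was under background on both arrays.

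**Figure D2:**
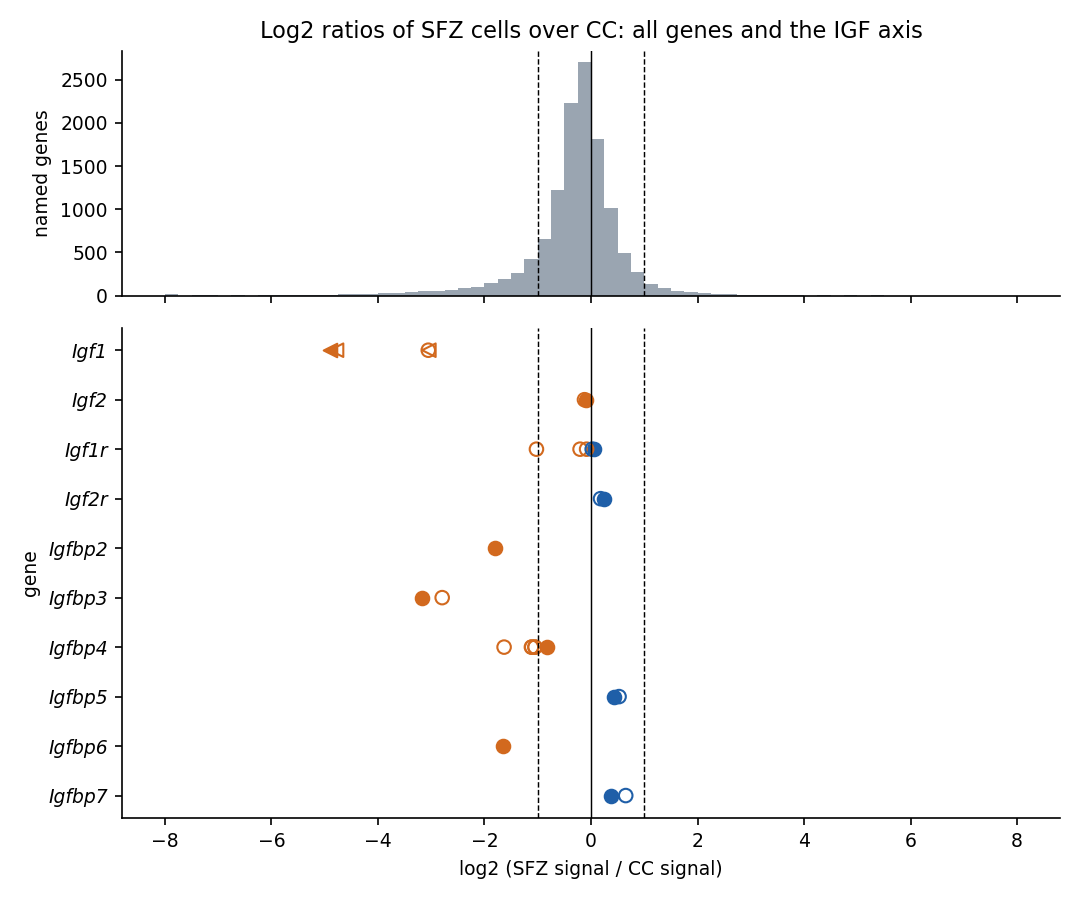
Log2 ratios of SFZ cells over CC, with 1 array each. The upper panel counts the 12477 named genes above background on an array in bins of the ratio, with values past the axis placed in its end bins, and the lower panel shows the IGF axis probe sets, with signals raised to background. Orange points lie toward CC and blue toward SFZ cells, filled points stand for the gene, open points are its other probe sets, triangles are bounds, and dashed lines stand at a ratio of 2 both ways. *Igf1* and *Igfbp3* lie farthest to the left, and *Igfbp5* and *Igfbp7* lie right of 0.

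Among the binding protein genes, *Igfbp3* had the highest ratio toward CC. It encodes the main carrier of IGFs in serum. Its brighter probe set gave 55.0 (SFZ) and 494 (CC) for a ratio of 8.98, and the second read 60.8 and 422, a ratio of 6.94. All of these signals were above background. The ratio of the brighter one was lower than those of 99.0% of the 500 probe sets of nearest signal. With 64 added to both signals it was 4.69 toward CC, still past the threshold.

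*Igfbp2*, which encodes a binding protein with an integrin-binding motif, had 1 probe set, with an SFZ signal of 147 and a CC signal of 510 for a ratio of 3.47. *Igfbp6*, whose product binds IGF-II in preference to IGF-I, also had 1 probe set, at 107 and 339, a ratio of 3.16. Both were above the minimum signal on both arrays. Under the 8 alternatives the ratio toward CC lay between 2.72 and 3.47 for *Igfbp2* and between 2.35 and 3.16 for *Igfbp6*. With a single probe set, neither ratio has a second measurement on these arrays.

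*Igfbp4*, encoding a binding protein that the metalloprotease PAPP-A cleaves, had 6 probe sets and was the gene whose call depended on the probe set. The brightest gave 3357 (SFZ) and 5917 (CC), and its ratio of 1.76 missed the threshold. The others read 2018 against 4362, 1641 against 5085, 1024 against 2224, 767 against 1590 and 264 against 548. Their ratios toward CC were 2.16, 3.10, 2.17, 2.07 and 2.08, so all 6 pointed to CC and 5 passed. With equal medians, quantile normalization or equal trimmed means all 6 still pointed to CC, but only 1 passed. It was the probe set with the ratio of 3.10, which was then 2.72, 2.81 and 2.69. Its name ends in _x_at, a class of probe sets that 1 of the alternatives left out. *Igfbp4* counted as higher in CC when the median over the probe sets was used, with a ratio of 2.12, when any probe set sufficed, or at a ratio over 1.5, each with the signals as deposited. The brightest probe set had a lower ratio than 97.4% of those of nearest signal. All 6 read the same RNA on the same arrays and are not independent measurements.

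*Igfbp5* and *Igfbp7* pointed the other way without passing. *Igfbp5*, whose product binds extracellular matrix and is made by bone, muscle and cartilage cells, read 2427 in SFZ cells and 1790 in CC on its brighter probe set and 147 and 102 on the other. The ratios of SFZ cells over CC were 1.36 and 1.44. *Igfbp7*, encoding a related protein of low affinity for IGFs, read 5031 and 3877, and a dimmer probe set read 81.4 and 51.8. The ratios were 1.30 and 1.57, and its dimmest probe set was under background on both arrays. Under the 8 alternatives the ratio toward SFZ cells lay between 1.34 and 1.56 for *Igfbp5* and between 1.29 and 1.49 for *Igfbp7*. These ranges describe size and do not check direction. All probe sets of both genes above background pointed to SFZ cells, and added constants or raising to background could not reverse the ratios. Equal medians and quantile normalization raised the median ratio of all genes toward SFZ cells. Of the named genes above background, 89.0% had a lower ratio than *Igfbp5* and 87.1% a lower ratio than *Igfbp7*.

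Probe sets of 1 gene give the only repeated measurement here, and they share the RNA and the array. Over the 5035 genes with more than 1 probe set above background on both arrays, the SD of log2 ratios within a gene was 0.31. Over such probe sets the log2 ratios spanned 0.03 for *Igf2*, 0.07 for *Igf2r*, 0.09 for *Igfbp5* and 0.28 for *Igfbp7*. They spanned 0.37 for *Igfbp3*, 0.81 for *Igfbp4* and 1.09 for *Igf1r*. *Igf1* had only 1 such probe set, so it has no span here. Its 4 log2 ratios ran from -5.89 to -3.06, with 3 of the SFZ signals under background. The log2 ratios of *Igfbp5* and *Igfbp7*, 0.44 and 0.38, were not much larger than that SD, and those of *Igfbp3* at -3.17, *Igfbp2* at -1.79 and *Igfbp6* at -1.66 exceeded it several times over. The SD covers disagreement between probe sets and not the spread between animals or cultures. The median log2 ratio of the 10 genes was -0.46, against -0.21 over all named genes above background, and the bound for *Igf1* does not enter it.

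**Figure D3:**
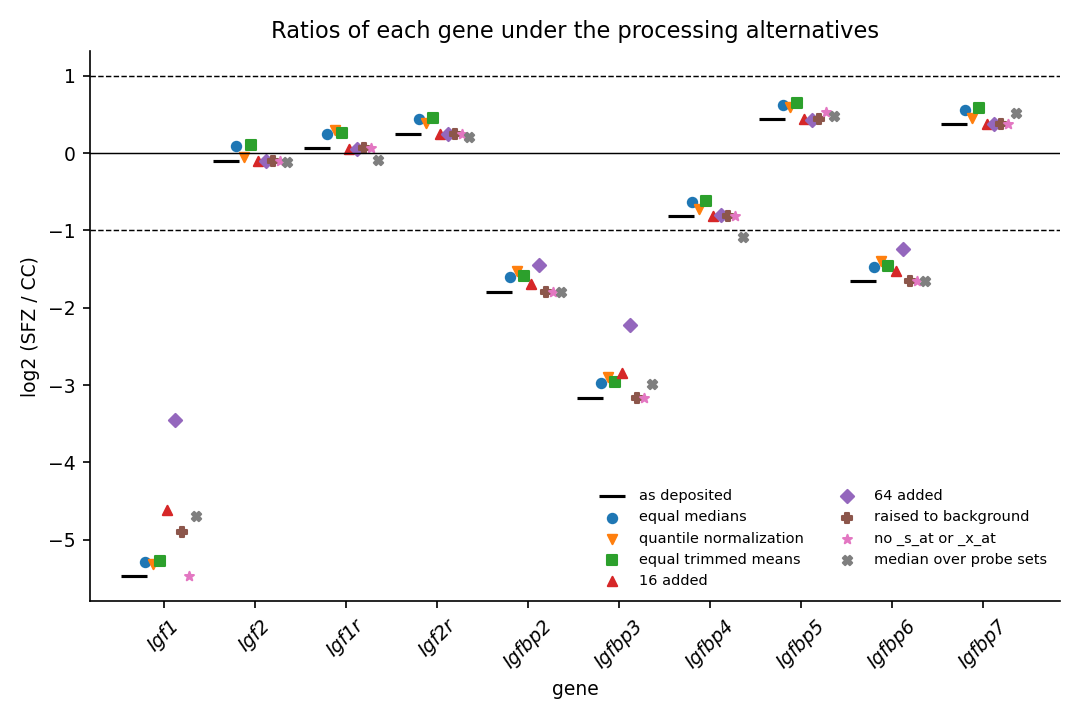
The log2 ratio (SFZ over CC) of each gene with the signals as deposited (bars) and under 8 processing alternatives (symbols), with 1 array per cell type. The dashed lines stand at a ratio of 2 both ways. *Igf1*, *Igfbp2*, *Igfbp3* and *Igfbp6* lie below -1 throughout, *Igfbp4* crosses that line only with the median over probe sets, and *Igf2* and *Igf1r* lie on both sides of 0.

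Some of these genes are neighbours in the genome. In the RefSeq annotation of GRCm38.p6 no other gene is listed between *Igfbp2* and *Igfbp5* on chromosome 1, and none between *Igfbp1* and *Igfbp3* on chromosome 11. *Igfbp2* was 3.47-fold higher in CC, while its neighbour *Igfbp5* had a ratio of 1.36 toward SFZ cells and did not pass. *Igfbp1*, which encodes a binding protein made chiefly by liver, was under background on both arrays on its only probe set, so it has no measured ratio to set beside that of *Igfbp3*.

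RefSeq promoter windows of GRCm38.p6 were found for all 10 genes, 14 windows in all, with 4 for *Igf2* and 2 for *Igfbp2*. The sequences of the 250 bases before the annotated start are shown for *Igf1* and *Igfbp3*, which had the highest ratios toward CC, for *Igfbp4*, which pointed the same way, and for the neighbours *Igfbp2* and *Igfbp5*. Capitals mark matches on either strand to TATANA (the TATA box, with N any base), GGGCGG (the GC box) or CCAAT (the CCAAT box), and matches of TATANA can overlap each other. The windows are chr10:87860861-87861110 on the plus strand for *Igf1*, chr11:7213924-7214173 on the minus strand for *Igfbp3*, chr11:99040994-99041243 on the plus strand for *Igfbp4*, chr1:72824230-72824479 on the plus strand for the first start of *Igfbp2*, and chr1:72874866-72875115 on the minus strand for *Igfbp5*.
Igf1: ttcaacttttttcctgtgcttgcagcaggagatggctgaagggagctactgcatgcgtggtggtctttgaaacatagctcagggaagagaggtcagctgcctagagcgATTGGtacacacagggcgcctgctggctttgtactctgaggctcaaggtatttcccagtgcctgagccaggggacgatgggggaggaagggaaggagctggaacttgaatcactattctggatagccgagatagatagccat
Igfbp3: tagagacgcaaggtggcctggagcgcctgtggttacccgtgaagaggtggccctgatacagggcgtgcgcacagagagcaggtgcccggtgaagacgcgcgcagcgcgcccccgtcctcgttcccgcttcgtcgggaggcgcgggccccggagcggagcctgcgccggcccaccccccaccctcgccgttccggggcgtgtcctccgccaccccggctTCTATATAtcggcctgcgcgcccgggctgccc
Igfbp4: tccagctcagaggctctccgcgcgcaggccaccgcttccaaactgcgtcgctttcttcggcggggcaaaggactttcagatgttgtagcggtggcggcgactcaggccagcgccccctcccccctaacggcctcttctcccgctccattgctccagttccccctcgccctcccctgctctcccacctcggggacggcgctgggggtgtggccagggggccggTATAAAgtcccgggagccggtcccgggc
Igfbp2: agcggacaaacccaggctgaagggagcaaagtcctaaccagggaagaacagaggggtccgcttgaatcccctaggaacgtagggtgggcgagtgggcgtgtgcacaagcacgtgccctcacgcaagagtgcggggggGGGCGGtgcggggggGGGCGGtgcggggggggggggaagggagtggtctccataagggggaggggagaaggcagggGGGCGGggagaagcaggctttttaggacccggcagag
Igfbp5: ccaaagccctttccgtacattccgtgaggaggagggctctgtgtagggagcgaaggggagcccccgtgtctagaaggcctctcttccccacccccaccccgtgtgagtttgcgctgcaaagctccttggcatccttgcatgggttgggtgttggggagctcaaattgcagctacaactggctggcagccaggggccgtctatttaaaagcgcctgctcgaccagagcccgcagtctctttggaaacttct

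TATANA was present in 22.6% of all 32851 RefSeq windows of the same length, GGGCGG in 32.7% and CCAAT in 33.8%. Of the 14 windows of the IGF axis genes 3 held TATANA, 6 held GGGCGG and 3 held CCAAT. In *Igfbp3* the matches to TATANA began 32 and 30 bases before the start, and in *Igfbp4* the match began 28 bases before it. The *Igf1* window held 1 CCAAT match, in reverse orientation, and neither other motif. The first window of *Igfbp2* held 3 matches to GGGCGG, and that of *Igfbp5* held none of the 3 motifs. None of the 3 motifs was shared by the windows of all 4 genes higher in CC. A match is a description of the letters and not a binding site. The windows of *Igf1r*, *Igf2r* and *Igfbp7*, which did not pass, each held GGGCGG, with 2, 3 and 4 matches. GC made up 52.8% of the *Igf1* window and 73.2% of the *Igfbp3* window, against a median of 52.4% over all windows.

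Of 47 other genes of the pathway, 42 had a probe set named for them alone and 39 were above background. By the thresholds 2 of the 42 were higher in CC, *Igf2bp1* and *Pik3r1*, and none was higher in SFZ cells. The shares over all named genes were 5.41% in CC and 1.18% in SFZ cells. The pathway counts were close to these shares and do not set the pathway apart. The median log2 ratio of the 39 was -0.25, near the -0.21 of all named genes above background. *Igf2bp1* encodes an RNA-binding protein that binds IGF-II mRNA and is known mainly from embryonic tissue. Its signals were 29.3 (SFZ) and 196 (CC), 6.70-fold apart, with 3 of 4 probe sets passing. The related *Igf2bp3* read 135 and 235 on its brightest probe set, a ratio of 1.74 toward CC, and 3 of its 6 probe sets passed. *Pik3r1*, encoding the main regulatory subunit of PI3K, was at 285 and 871, a ratio of 3.06, and all 4 of its probe sets passed. *Pik3r3*, another regulatory subunit gene, was at 32.6 and 98.0, under the minimum.

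The genes that release IGFs from binding proteins did not pass. *Pappa*, encoding the metalloprotease PAPP-A that cleaves IGFBP-4, had signals of 813 (SFZ) and 497 (CC), 1.64-fold apart. *Stc2*, encoding stanniocalcin-2, an inhibitor of PAPP-A, was at 1356 and 723, a ratio of 1.88, and passed in SFZ cells with equal medians, quantile normalization and equal trimmed means. The related inhibitor gene *Stc1* read 48.7 and 90.0, pointing to CC. The secreted protease gene *Htra1* was at 1420 and 1381. Thus *Igfbp4* and *Pappa* pointed to opposite cell types, though only the former had probe sets past the thresholds. Other protease genes on the list pointed to CC without passing. *Htra3* was at 150 (SFZ) and 261 (CC), *Pappa2* at 84.0 and 109 and *Adam12* at 234 and 275. The log2 ratio of *Adam12*, -0.24, was near the median of -0.21 over all named genes above background.

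Among the adaptor, growth hormone and PI3K pathway genes, only *Pik3r1* passed with the signals as deposited. *Irs1*, a docking protein of the insulin and IGF receptors, had signals of 1475 (SFZ) and 2768 (CC) and did not pass at a ratio of 1.88 toward CC. *Grb10*, an imprinted adaptor that restrains both receptors, was at 3522 and 4672. *Grb14*, a related inhibitor, was at 558 and 294, a ratio of 1.90 toward SFZ cells, and passed there under the same scalings as *Stc2*. *Akt1* was at 1077 and 1306 and *Mtor*, the growth kinase, at 321 and 381. Of the growth hormone genes, the receptor gene *Ghr* was at 637 and 942, and none of the 4 passed.

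**Figure D4:**
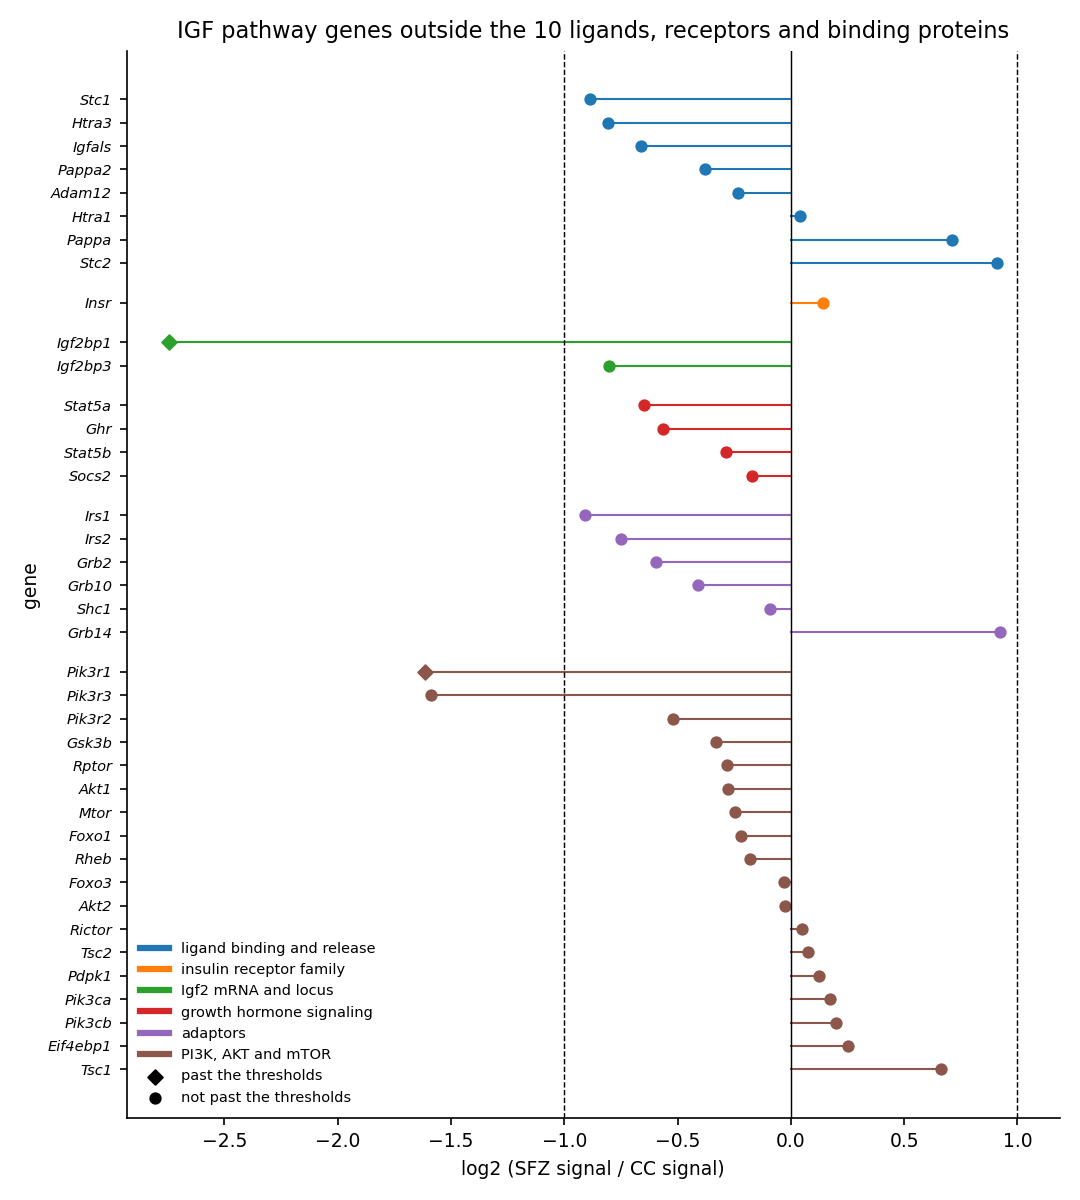
The log2 ratios (SFZ over CC) of the 39 pathway genes above background outside the 10 members, sorted within roles (colours), with 1 array per cell type. Diamonds are genes past the thresholds and dashed lines stand at a ratio of 2 both ways. Only *Igf2bp1* and *Pik3r1* pass, and *Pik3r3* lies beyond the line with a CC signal under the minimum of 100.

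Some markers of other cell types were also higher in CC. Of 19 skeletal muscle markers 16 were higher in CC, and they summed to 346 (SFZ) and 41677 (CC). The myogenic regulator genes *Myod1* and *Myog* were at 457 and 2721 in CC and under background in SFZ cells, while *Myf5*, *Myf6* and *Pax7* were under background on both arrays. Of 6 adipocyte markers 5 were higher in CC, with a summed signal of 1019 in SFZ cells and 11489 in CC. *Fabp4*, a lipid carrier of adipocytes, was at 42.7 and 6039. Of 10 macrophage and leukocyte markers 4 were higher in CC, with summed signals of 491.5 and 2205. The pan-leukocyte gene *Ptprc* was near background, at 18.1 and 29.8, and *Csf1r*, the macrophage growth factor receptor gene, was at 55.6 and 127. Of 10 fibroblast and perichondrium markers 5 were higher in CC, with summed signals of 25846 and 37248. None of 5 endothelium markers passed, with summed signals of 62.5 and 156. No marker had a signal of 0 on either array, but several were under background. A signal above 0 alone therefore does not show that a cell type was present. Of 15 chondrocyte markers 2, *Col9a3* and *Matn1*, passed in SFZ cells, and no chondrocyte marker passed in CC. The part of these cell types in the signals of *Igf1*, *Igfbp2*, *Igfbp3*, *Igfbp4*, *Igfbp6*, *Igf2bp1* and *Pik3r1* was not tested. In such bulk RNA, fewer cells of a type and less RNA per cell cannot be told apart.

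**Figure D5:**
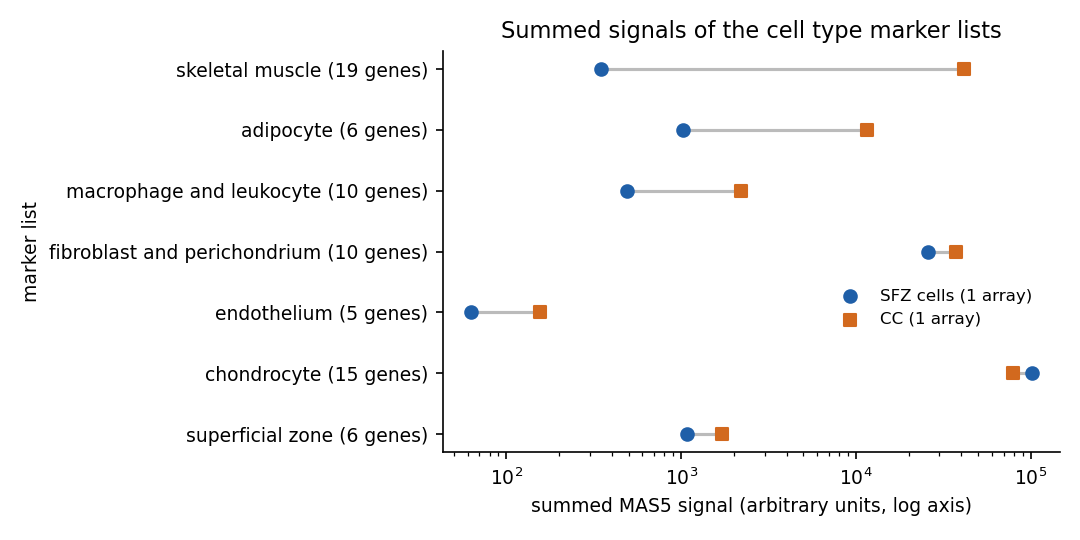
Summed MAS5 signals of the marker lists on a log axis, with circles for the SFZ array and squares for the CC array and the number of measured genes in brackets. The skeletal muscle sum is 346 against 41677, and only the chondrocyte sum, 101059 against 78895, is higher on the SFZ array.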

How the data were processed

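RNA of SFZ cells and CC was labelled from 100 ng and hybridized to Affymetrix mouse genome arrays. The values deposited by the authors are MAS5 signals, an intensity per probe set on a linear scale. The submitters' processing notes name MAS5. No source used here gives the MAS5 version, target scale or presence calls. Signals were not scaled again, and precision is limited by having 1 array for each cell type.

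The 64 control probe sets were left out, leaving 45037, of which 34945 had 1 gene symbol, 932 several and 9160 none in the platform annotation. All 10 members matched RefSeq symbols of GRCm38.p6 through Entrez identifiers. Every member was named with all of its probe sets, as were the pathway genes past the thresholds and a few fixed by name. *Col2a1*, *Vcam1*, *Thbs4*, *Erg*, *Clu*, *Col9a3*, *Matn1* and the pathway genes *Insrr*, *Stc1*, *Stc2*, *Htra1*, *Htra3*, *Pappa2*, *Adam12*, *Pik3r3*, *Irs1*, *Grb14*, *Akt1*, *Mtor*, *Ghr* and *Igfbp1*, with *Myf6*, were named after their values were seen. The members and lists were chosen with earlier results of these data known. The array names no genome build, so coordinates are given only for RefSeq promoters.

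Alternatives were equal medians, equal trimmed means, quantile normalization, 16 or 64 added to both signals, signals raised to background, other thresholds and other choices of probe sets. Tools were pandas 2.3.3, numpy 2.4.6 and scipy 1.17.1 under Python 3.11.15, with plots by matplotlib 3.10.9. Proteins were not analysed here.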

Additional observations from a re-analysis of the deposited data

Results flagged for a closer look

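Probe sets outside those of the 10 genes gave signals above the background levels of 28.2 (SFZ) and 26.0 (CC) for transcripts that overlap members of the axis. The probe set of *Igf2os*, an antisense transcript of the *Igf2* locus, read 103 (SFZ) and 106 (CC). Of the probe sets named for *Airn*, the noncoding RNA antisense to *Igf2r* that silences its paternal copy in mice, the first read 103 and 146 and the third 169 and 199. The second read 31.4 on the SFZ array and was under background in CC, and the fourth read 32.4 and 59.8. The last *Airn* probe set, that of *Igf1os*, antisense to *Igf1*, and 1 shared by *Airn* and *Igf2r* were under background on both arrays. None of these probe sets passed the thresholds in either direction.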

How the results depend on the processing

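Under the alternatives, 76 of 82 values of the counts and of the median log2 ratio were called close to those as deposited. A count was called close within 1.5 times. The median log2 ratio of the IGF axis genes was -0.46 as deposited. All of its values were called close, from -0.60 with the median over probe sets to -0.25 with equal trimmed means. It was -0.27 with equal medians. Some of the 76 were counts of 0 in SFZ cells, which a stricter threshold or signals raised to background could not raise. The share called close therefore says little on its own. The counts of IGF axis genes and probe sets were among the 76, but the 13 probe sets higher in CC became 9 with equal medians, quantile normalization and equal trimmed means, which ended 4 of the 5 calls of *Igfbp4* probe sets, and 11 with 64 added, which ended 2 of them. The genes *Igf1*, *Igfbp2*, *Igfbp3* and *Igfbp6* were higher in CC in every setting tried. Looser thresholds could not end any of these calls. *Igfbp2* and *Igfbp6* have 1 probe set each, above background on both arrays. Other choices of probe sets and raising to background could therefore not change their ratios. Of the pathway genes outside the members, 2 became higher in SFZ cells, *Stc2* and *Grb14*, with equal medians, with quantile normalization and with equal trimmed means, and 4 at a ratio over 1.5. The 2 pathway genes higher in CC became 8 at a ratio over 1.5 and 1 at a signal over 200. A looser or stricter threshold moves such counts by its own construction. *Stc2* and *Grb14* had ratios of 1.88 and 1.90 toward SFZ cells as deposited, just under the threshold. Equal medians raised every log2 ratio by 0.19, which took both past it. Of 80 ratios of single genes 4 moved by over 1.5 times, those of *Igf1* with 16 or 64 added or with the median over probe sets and that of *Igfbp3* with 64 added. No paired analysis was possible because there was 1 array per cell type, and no array could be left out.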
